A study of Mus musculus with 12 samples.

Results

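Gusb encodes beta-glucuronidase, a lysosomal enzyme, and its transcript was measured by 1 probe in 4 brain regions of adult mice. The probe, CUST_3_PI419532418, was chosen by its name and is paired in the files with the RefSeq transcript NM_010368.1, which matched Gusb on mouse chromosome 5. It was printed in 20 copies on every scan. It is 1 of 15 probes that could be given a gene name, among 60915 probes that are not controls. The remaining 14 named genes, all with CUST probe names, are mostly of the housekeeping kind, and Gusb was set against them as well as against the array as a whole.

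Beta-glucuronidase is a hydrolase of the acid interior of lysosomes. It removes terminal glucuronic acid residues from glycosaminoglycans such as heparan sulfate, dermatan sulfate and chondroitin sulfate, which would otherwise build up in the cell. Loss of the enzyme causes mucopolysaccharidosis type VII (Sly syndrome) in people and a like storage disease in mice, with swollen lysosomes in neurons and glia. Inbred mouse strains carry different alleles of the gene, some with lower enzyme activity, and Gusb is often used as a reference gene in quantitative PCR.

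The regions were the olfactory bulb, the hypothalamus, the hippocampus and the cerebellum, dissected from male BALB/c mice aged 10 weeks, with no drug or other intervention named. All samples shared this strain, sex and age. Each region had 3 scans of a single-colour (Cy3) array, 12 in all, and the labels do not tie a scan to 1 of the 3 mice that the series text gives. The log2 SD of the copies (repeated spots) of a named gene, as the median over these genes with outlier spots kept, was at least 0.055 on every scan. Replicates 1 and 3 of the hippocampus were closer than that, with an SD of the log2 difference of 0.0278 over 15222 bright probes. So were replicates 1 and 3 of the cerebellum (0.0262). Each such pair was averaged and counted as 1 array. This left 10 arrays: the olfactory bulb and the hypothalamus had 3 each, the hippocampus and the cerebellum 2 each. P-values therefore measure the spread between these arrays, which may be technical. Of the 128 other genes in the lists of lysosomal genes and of cell type and region markers, 0 had a probe with a gene name. Other lysosomal enzymes could thus not be set beside Gusb, and the dissected regions were not checked against their markers.

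Gusb was measured clearly in every region. On each of the 12 scans all 20 copies were well above background and none was saturated. Over the whole array, 87.87% to 93.17% of the probes of a scan reached this mark. The mean processed signal of the copies, in intensity units after the scanner software's background subtraction, was 1318, 1152 and 1102 on olfactory bulb scans 1, 2 and 3. It was 833.1, 763 and 756.1 on the hypothalamus scans, and 587.3, 531.9 and 548.1 on the hippocampus scans. On the cerebellum scans it was 916, 868.2 and 855.3. The 3 olfactory bulb scans were thus the brightest of the 12 and the 3 hippocampus scans the dimmest, and no region's scans overlapped those of another region. The median local background around the copies was between 26.5 and 36.5 units on every scan, far below these signals.

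Scans also differed in brightness as a whole, so signals were compared after scaling. The 75th percentile of the processed signal was 1517 to 1645 on the olfactory bulb scans, 1128 to 1145 on those of the hypothalamus, 1188 to 1285 on those of the hippocampus and 1427 to 1614 on those of the cerebellum. The hypothalamus scans were the dimmest overall. Subtracting each scan's log2 75th percentile gave the scaled level of Gusb, in which 1 unit is a 2-fold difference. Negative levels only mean that the signal lay below that percentile.

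On this scale the order of the regions was olfactory bulb, hypothalamus, cerebellum, hippocampus. The olfactory bulb arrays stood at -0.32, -0.51 and -0.47, a mean of -0.43 ± 0.10 (SD, n = 3). The hypothalamus arrays stood at -0.44, -0.57 and -0.60, a mean of -0.54 ± 0.09 (SD, n = 3), and overlapped the olfactory bulb. The hippocampus arrays, at -1.11 and -1.26, averaged -1.19 ± 0.11 (SD, n = 2) and were the lowest. The cerebellum arrays, at -0.74 and -0.90, averaged -0.82 ± 0.11 (SD, n = 2) and lay between the hippocampus and the other regions, overlapping neither. In whole tissue, fewer cells that express a gene and less of its RNA per cell cannot be told apart.

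**Figure D1:**
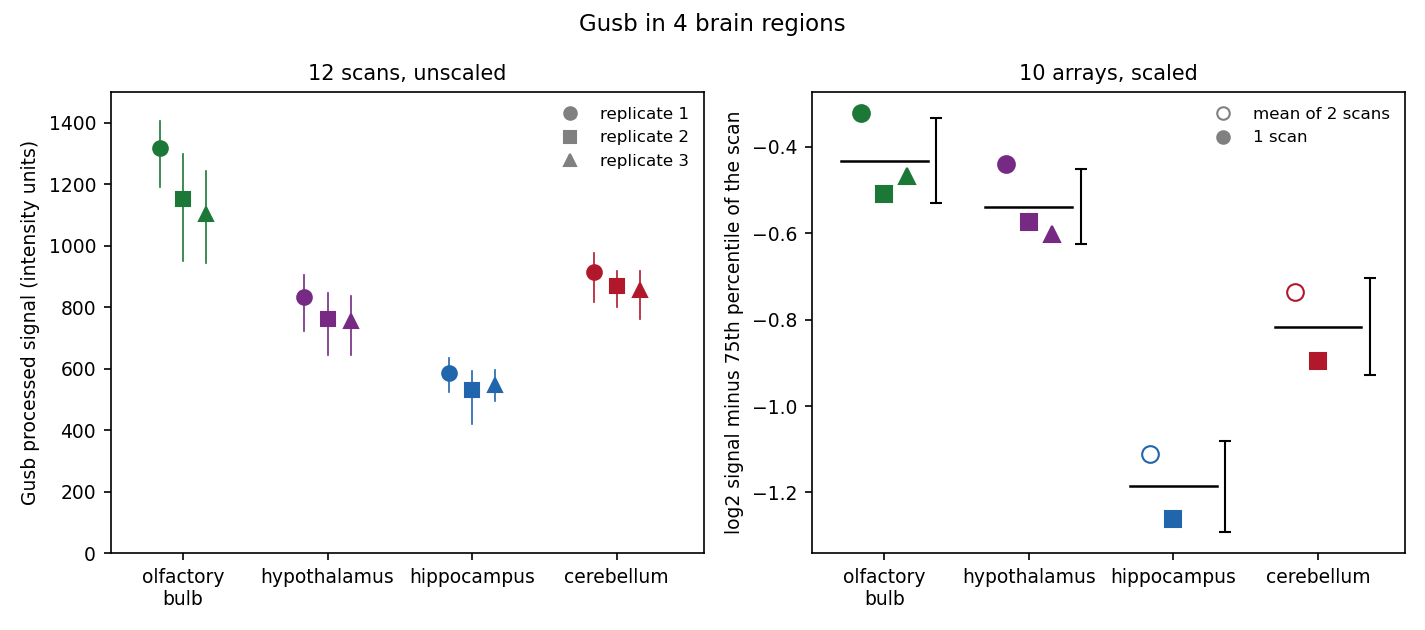
Gusb by brain region. Left, mean processed signal (intensity units, linear axis from 0) of the 20 copies on each of 12 scans, with lines from the lowest to the highest copy; the hippocampus scans, at 531.9 to 587.3, lie below all others. Right, log2 signal minus the 75th percentile of the scan for the 10 arrays counted (open symbols, mean of 2 scans), with region means (bars) and SD (error bars); the olfactory bulb and the hypothalamus overlap and the hippocampus is lowest.

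The level of Gusb differed between the 4 regions. By the moderated F test of limma, fitted to 56494 probes with p-values adjusted over all of them, its adjusted p was 0.00346. An adjusted p under 0.05 counted as a call, and 36.1% of the probes were called in this test, so a difference among these regions was common on the array. The region means of Gusb spanned 0.75 on the log2 scale from the highest to the lowest region. This span was not unusual either: 41.3% of the tested probes spanned as much or more, and the median span was 0.64.

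Of the 6 region pairs, 3 passed the test. The olfactory bulb exceeded the hippocampus in Gusb by 0.75 on the log2 scale (SE 0.11, 95% interval 0.50 to 1.01), a 1.69-fold difference, with an adjusted p of 0.00194. In this pair 20.3% of the tested probes were called, counting both directions, as in each share of called probes given here. Every olfactory bulb array lay above every hippocampus array. Gusb was also higher in the hypothalamus than in the hippocampus by 0.65 (SE 0.11, 95% interval 0.39 to 0.90), or 1.57-fold, with an adjusted p of 0.00467, where 16.9% of the probes were called. Every hypothalamus array lay above every hippocampus array.

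The call for the olfactory bulb over the cerebellum was close to the threshold. The difference was 0.38 (SE 0.11, 95% interval 0.13 to 0.64), or 1.31-fold, with an adjusted p of 0.0411, in a pair where 21.5% of the probes were called. Without any single one of the 10 arrays, including those of regions outside the pair, the adjusted p lay between 0.0524 and 0.219 and the call was lost, while the difference stayed between 0.30 and 0.46.

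The pairs that are neighbours in the order of levels did not pass. The olfactory bulb lay 0.11 above the hypothalamus (SE 0.10, 95% interval -0.12 to 0.33, adjusted p 0.529), so a difference of up to 0.33 in that direction is within the interval, and 23.4% of the probes were called in this pair. The hypothalamus lay 0.28 above the cerebellum (SE 0.11, 95% interval 0.02 to 0.53), with an adjusted p of 0.11 and 26.1% of the probes called. The difference of the hippocampus from the cerebellum was -0.37 (SE 0.12, 95% interval -0.65 to -0.09), with an adjusted p of 0.0626 and 23.3% of the probes called. In both of the last pairs the arrays did not overlap.

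These last pairs changed sides of the threshold when the replicate number was taken as a block, that is, when regions were compared within a number. The averaged hippocampus and cerebellum arrays, of scans numbered 1 and 3, were put in block 1. With the block, the hypothalamus lay 0.30 above the cerebellum (SE 0.04, adjusted p 0.00235). The hippocampus lay -0.37 from the cerebellum as before, but with an SE of 0.04 and an adjusted p of 0.0013. The olfactory bulb and the hypothalamus, at 0.11 (SE 0.03), had an adjusted p of 0.0572 in the blocked fit. Gusb thus passed the test in 5 of the 6 pairs with the block and in 3 without it. Calls also became more common among all probes with the block, at 41.8% for the hypothalamus and the cerebellum, 41.4% for the hippocampus and the cerebellum and 41.2% for the olfactory bulb and the hypothalamus. They made up 37% of the probes for the olfactory bulb and the hippocampus, 36% for the olfactory bulb and the cerebellum and 32.3% for the hypothalamus and the hippocampus.

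Within each replicate number the regions present kept the same order, with the averaged hippocampus and cerebellum arrays counted under number 1. On the arrays numbered 1, Gusb stood at -0.32 in the olfactory bulb, -0.44 in the hypothalamus, -1.11 in the hippocampus and -0.74 in the cerebellum. On those numbered 2 it stood at -0.51, -0.57, -1.26 and -0.90 in these regions, and on those numbered 3 at -0.47 in the olfactory bulb and -0.60 in the hypothalamus. The 4 arrays numbered 1 were the highest of their regions, by 0.07 to 0.11 above the region mean, and the median of all probes stood 0.05 to 0.07 above the region means on the same arrays.

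The differences within a number varied little. The olfactory bulb exceeded the hippocampus by 0.79 on arrays 1 and 0.75 on arrays 2, and the hypothalamus exceeded the hippocampus by 0.67 and 0.69. The olfactory bulb exceeded the cerebellum by 0.41 and 0.39, and the hypothalamus exceeded it by 0.30 and 0.32. The hippocampus differed from the cerebellum by -0.38 and -0.36. The olfactory bulb exceeded the hypothalamus by 0.12, 0.06 and 0.14 on arrays 1, 2 and 3. All 13 of these differences had the sign of the difference of the region means, to which the same arrays contributed. Scans numbered 1 shared 1 scan time over all regions, as did scans numbered 2, whereas the averaged arrays 1 of the hippocampus and the cerebellum also hold a scan of another time. Each region had its own value in the barcode field of the scanner files, the same on all its scans. The region and whatever this field marks thus cannot be told apart.

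The 20 copies of the probe gave a second view of the measurement. Within a scan their SD on the log2 scale was 0.065 to 0.148, largest on olfactory bulb scan 2, and the SE of a scan's mean over copies was at most 0.0331. Copies are repeated spots of 1 hybridised sample, not replicates of a region. Computed copy by copy, the olfactory bulb was the highest region for 20 of 20 copies and the hippocampus the lowest for 20 of 20. The difference between these regions was 0.67 to 0.81 over the copies. On this scale the copies read the cerebellum above the hypothalamus in 0 of 20 cases. All copies of a scan were scaled by the same value, so the copies do not check the scaling. With no scaling the hypothalamus lay below the cerebellum in the mean over copies (-0.16).

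**Figure D2:**
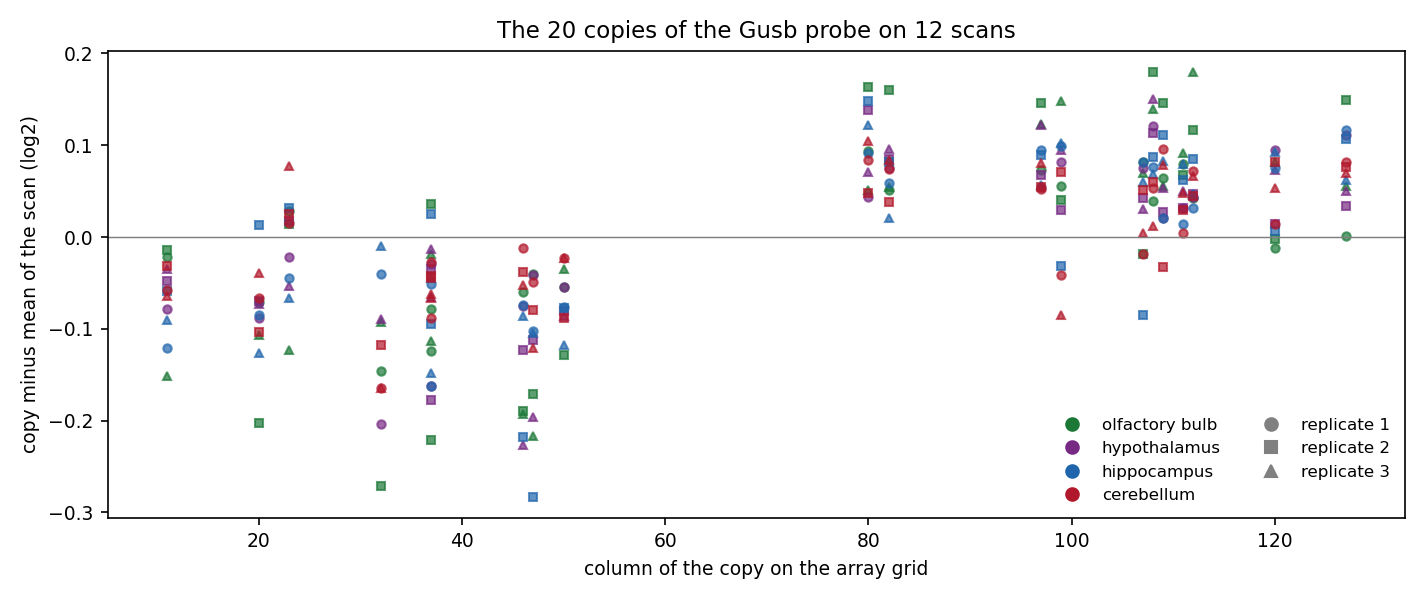
Deviation of each of the 20 copies of the Gusb probe from the mean of its scan (log2 scale) against the copy's column on the array grid, for 12 scans; colours are regions and shapes replicate numbers, and copies marked as outliers are left out. Copies in columns up to 50 lie mostly below the scan mean and copies from column 80 on mostly above it, in all regions.

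The signal of a copy differed with its column on the array. The 9 copies in columns 1 to 50 of the 164-column grid averaged 0.15 lower, on the log2 scale, than the 11 copies from column 80 on, and they were lower on 12 of 12 scans (by 0.10 to 0.23). The same side was lower on average for 13 of the 14 other named genes, with Rpl13a the exception, but by a median over the 14 of only -0.07. For 6 of the 14 it was lower on every scan with a value, whereas Tuba1b (mean -0.005, lower on 7 of 12 scans) and Hsp90ab1 (mean -0.009, lower on 6 of 12) were near 0. The lowest mean, -0.54 for Gk, was -0.32 without olfactory bulb scan 3 (-2.92). It also went with the number of left Gk copies that were not marked as outliers. The Gk difference was -2.92 to -0.26 on scans with 6 such copies and -0.24 to 0.08 on scans with 3. This split of the copies was chosen after their values were seen. Of the 9 Gusb copies, the one in row 311 had a mean deviation of only -0.008 from the scan mean, and the rest lay in rows 96 to 185. A copy from column 108, in row 136, had a mean deviation of 0.09. Columns were not tested apart from rows. All 6 differences between regions kept their sign from side to side. Gusb in the olfactory bulb exceeded that in the hippocampus by 0.74 over the 9 copies and by 0.77 over the 11, and the hypothalamus exceeded it by 0.65 over each set. The hippocampus differed from the cerebellum by -0.40 and -0.35. The pair that moved most was the olfactory bulb over the cerebellum, at 0.34 over the 9 copies and 0.42 over the 11. The hypothalamus exceeded the cerebellum by 0.25 and 0.30, and the olfactory bulb exceeded the hypothalamus by 0.09 and 0.12. Correcting each of 128 tiles of the array for its median deviation gave 0.81 for the olfactory bulb over the hippocampus and 0.65 for the hypothalamus over it.

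The choice of scaling changed the size of the differences and, in 1 case, the order. Quantile normalization gave levels of 9.98 in the olfactory bulb, 9.88 in the hypothalamus, 9.24 in the hippocampus and 9.60 in the cerebellum, in log2 units. The olfactory bulb then exceeded the hippocampus by 0.74. Scaling by the median of each scan gave 0.73 for this pair. Normexp background correction, which subtracts the local background and models the remainder as noise plus signal, gave 0.68 with an offset of 50. The hypothalamus exceeded the hippocampus by 0.64, 0.61 and 0.59 in the same settings.

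The values moved most when no scaling was applied. With no scaling, the log2 signal of Gusb was 10.21 ± 0.14 (SD, n = 3) for the olfactory bulb and 9.61 ± 0.07 (SD, n = 3) for the hypothalamus. It was 9.11 ± 0.06 (SD, n = 2) for the hippocampus and 9.77 ± 0.02 (SD, n = 2) for the cerebellum. The hypothalamus then lay below the cerebellum, at -0.16 (adjusted p 0.238), and below the olfactory bulb by enough to pass the test (0.59, adjusted p 0.00109). Between the olfactory bulb and the hippocampus the difference was 1.103 (adjusted p 0.000115), a 2.15-fold difference against 1.69-fold with the 75th percentile. Calls were common without scaling, at 51.2% of the probes between the olfactory bulb and the hypothalamus and 42.8% between the hypothalamus and the cerebellum. The shares were 39.8% for the olfactory bulb and the hippocampus, 23.6% for it and the cerebellum, 17.6% for the hypothalamus and the hippocampus and 32.8% for the hippocampus and the cerebellum. In unscaled values the median of all probes moved as well, by -0.45 between the hypothalamus and the cerebellum by 0.46 between the olfactory bulb and the hypothalamus and by 0.37 between the olfactory bulb and the hippocampus. Relative to that median, Gusb differed by 0.29, 0.13 and 0.73 in these pairs. The hippocampus was the lowest region, and the olfactory bulb the highest, in every setting plotted here.

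**Figure D3:**
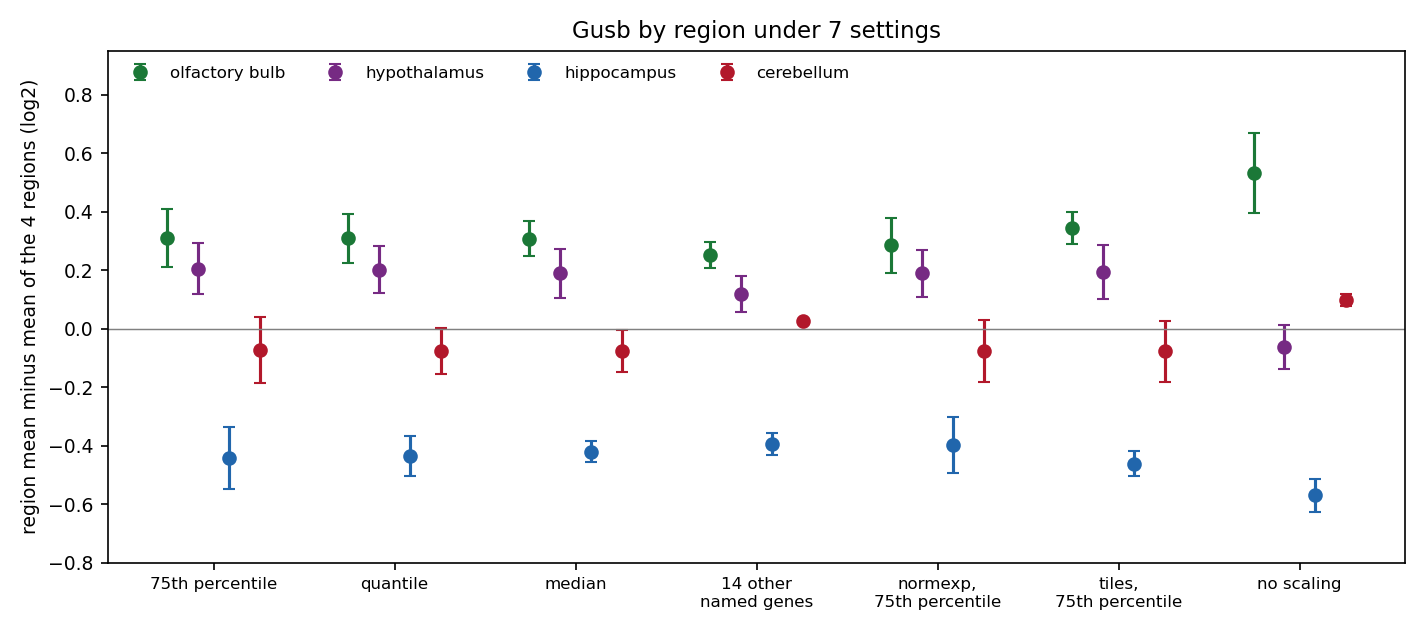
Gusb region means minus the mean of the 4 regions (log2) under 7 settings, with SD over the arrays of a region (n = 3 for the olfactory bulb and the hypothalamus, n = 2 for the hippocampus and the cerebellum). The olfactory bulb is highest and the hippocampus lowest in each; the hypothalamus lies above the cerebellum in 6 settings and below it with no scaling.

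Against the 14 other named genes, Gusb kept its highest and lowest region. Scaled by their mean log2 signal on each scan, the olfactory bulb averaged -3.98 ± 0.04 (SD, n = 3), the hypothalamus -4.12 ± 0.06 (SD, n = 3) and the hippocampus -4.63 ± 0.04 (SD, n = 2). Both cerebellum arrays stood at -4.21. The size of these levels compares different probes and has no meaning of its own. The olfactory bulb exceeded the hippocampus by 0.65 (adjusted p 0.000256) and the hypothalamus exceeded it by 0.51 (adjusted p 0.000982). The hippocampus differed from the cerebellum by -0.42, which passed the test here (adjusted p 0.00303). The median of all probes stood at -0.07 between these regions. Relative to that median Gusb differed by -0.35, as it did with the 75th percentile. The olfactory bulb exceeded the cerebellum by 0.23 (adjusted p 0.0372), a smaller difference than the 0.38 obtained with the 75th percentile. Under this scaling the median of all probes stood at -0.16 in that pair. The hypothalamus exceeded the cerebellum by 0.09 (adjusted p 0.348), where the median of all probes stood at -0.19. The share of probes called under this scaling was 24.8% for the olfactory bulb and the hippocampus, 21.1% for the hypothalamus and the hippocampus and 28.6% for the hippocampus and the cerebellum. It was 28.1% for the olfactory bulb and the cerebellum, 32.6% for the hypothalamus and the cerebellum and 28% for the olfactory bulb and the hypothalamus, a pair in which Gusb differed by 0.13 (adjusted p 0.148).

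**Figure D4:**
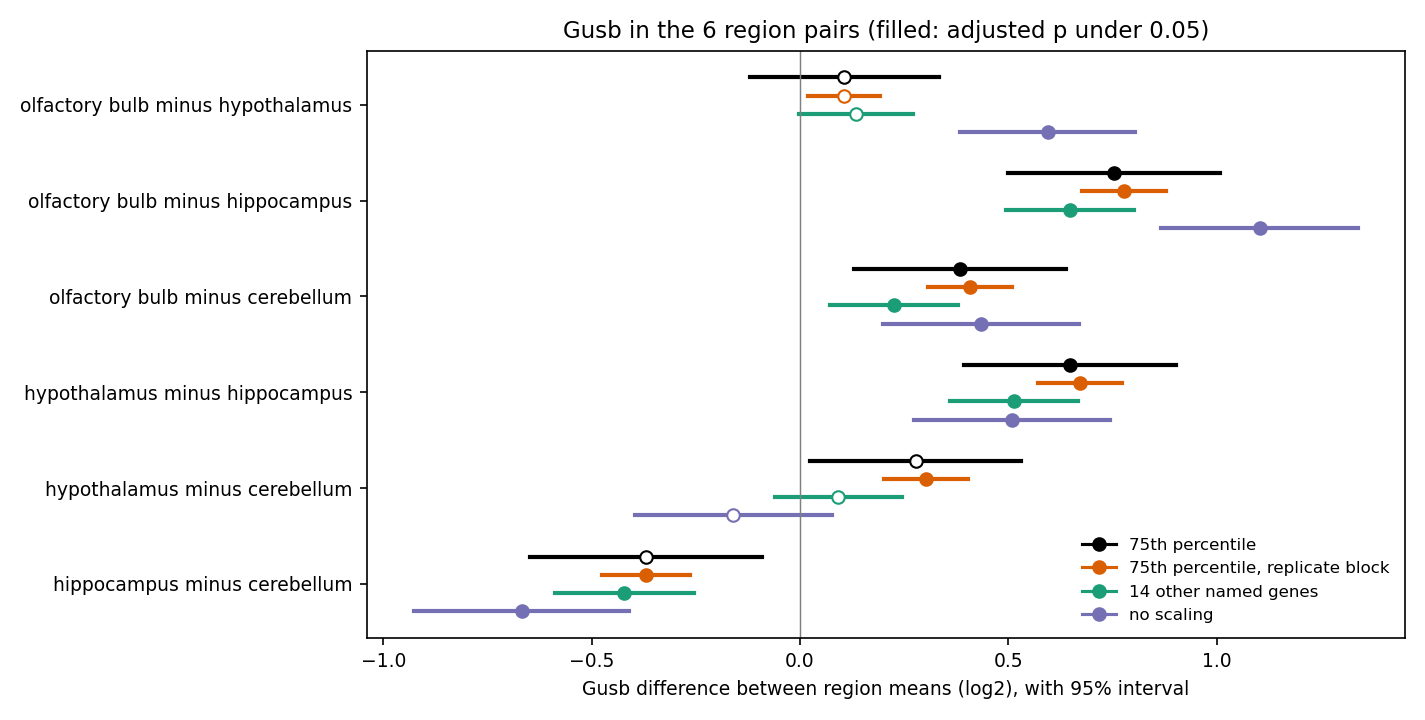
Difference in Gusb between region means (log2, x axis) for the 6 region pairs, each with its 95% interval, under 4 settings; filled points have an adjusted p under 0.05. The intervals for the olfactory bulb minus the hippocampus and the hypothalamus minus the hippocampus lie above 0 in all 4, whereas the hypothalamus minus the cerebellum lies on both sides of 0.

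The ratio of Gusb to a single other gene on the same array needs no scaling between arrays. Between the hypothalamus and the hippocampus, this log2 ratio was higher in the hypothalamus for all 14 genes, by 0.04 (Hprt) to 0.80 (Actb), with a median of 0.50. Between the olfactory bulb and the hippocampus it was higher in the olfactory bulb for 13 of 14, with a median of 0.74 and a highest value of 1.13 (Actb). The exception was Ldhal6b, of the lactate dehydrogenase family, at -0.54. Between the hippocampus and the cerebellum the ratio was higher in the hippocampus for 2 of 14 genes, with a median of -0.53. Between the olfactory bulb and the cerebellum 11 of 14 ratios were higher in the olfactory bulb, with a median of 0.26, and between the olfactory bulb and the hypothalamus 10 of 14 were, with a median of 0.25. Between the hypothalamus and the cerebellum the ratios fell almost evenly, with 8 of 14 higher in the hypothalamus and a median of 0.03. No test was run on single ratios, and a ratio shows unequal change of the 2 genes, not which of them changed. The 14 ratios of a region pair hold the same Gusb values, so they are not separate results.

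Other named genes had their own regional patterns. In the test over 4 regions, 8 of the 15 genes were called, Gusb included, against 36.1% of all probes tested. With the replicate block 13 of the 15 were called, against 53.8% of all probes. Gusb had the seventh largest span of region means among the 15, where the other genes ranged from 0.14 (Tfrc, the transferrin receptor) to 1.38 (Ldhal6b). Between the olfactory bulb and the hippocampus, B2m, beta-2-microglobulin of the antigen-presenting complex, was higher by 0.42 (adjusted p 0.0194). Ldhal6b was higher by 1.30 (adjusted p 0.00261) and Actb, cytoskeletal beta-actin, was lower (-0.38, adjusted p 0.0322). These 3 of 14 stand against 20.3% of all probes called in this pair. With the block 9 of the 14 were called, 5 higher and 4 lower in the olfactory bulb, against 37% of all probes. The block added Nono (0.35, adjusted p 0.00222), Tbp, the TATA-binding protein (0.46, adjusted p 0.000557), and Rpl13a among the higher, and Hsp90ab1, Gapdh and Hprt among the lower. Between the hypothalamus and the hippocampus 2 of the 14 were called, Hprt, a purine salvage enzyme, and Tuba1b, an alpha-tubulin, both higher in the hypothalamus, against 16.9% of all probes. With the block 7 of the 14 were called, 6 higher and 1 lower in the hypothalamus, against 32.3% of all probes. Without the block, 3 of the 14 were called between the olfactory bulb and the hypothalamus (23.4% of all probes). The count was 5 for the olfactory bulb and the cerebellum (21.5%) and 6 for the hypothalamus and the cerebellum (26.1%). For the hippocampus and the cerebellum it was 3 (23.3%). The hippocampus was the lowest region for 3 of the 14 and the cerebellum for 9, whereas the olfactory bulb was the highest for 3 and the hypothalamus for 6.

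The pattern of Gusb over the 10 arrays was most like that of Nono, B2m and Rpl13a among the named genes. Pearson's r of the scaled levels was 0.82 for Nono, an RNA- and DNA-binding protein of the nucleus, 0.71 for B2m and 0.56 for Rpl13a, a ribosomal protein. Nono stood at 1.57 in the olfactory bulb, 1.42 in the hypothalamus, 1.23 in the hippocampus and 1.50 in the cerebellum, so its highest and lowest regions were those of Gusb. B2m stood at 3.26, 3.01, 2.84 and 2.60 in the same regions, lowest in the cerebellum. Least like Gusb were Hsp90ab1, a chaperone, with an r of -0.54, and Actb, with one of -0.10. These arrays share their replicate numbers and scan times, and r is given as a description over 10 arrays. The 3 Nono copies in the left columns were marked as outliers on olfactory bulb scan 1 and left out, and with outlier spots kept its r was 0.83. The ranking depended on the scaling. With no scaling r was 0.88 for Nono, 0.87 for Ppia, 0.85 for B2m and 0.83 for Rpl13a, and lowest for Actb (-0.04) and Hsp90ab1 (0.16). Over the scaled region means Ldhal6b (0.58) was above Rpl13a (0.53), and Gapdh (-0.29) was below Actb (-0.15).

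Over all probes the closest patterns came from probes without a gene name. Of 56493 other probes tested, 520 (0.92%) had an r of at least 0.9 to Gusb and 57 (0.101%) one of -0.9 or less. The probe ASMM10P002716 had the highest, 0.995, with scaled levels of 1.67 in the olfactory bulb, 1.46 in the hypothalamus, -0.20 in the hippocampus and 0.76 in the cerebellum. ASMM10P028261 had an r of 0.994. ASMM10P031125 had the lowest, -0.97, with -2.37 in the olfactory bulb, -2.11 in the hypothalamus, -0.21 in the hippocampus and -1.35 in the cerebellum, and ASMM10P038367 had one of -0.96. The order of regions found for Gusb was shared by 2186 of these probes (3.87%).

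**Figure D5:**
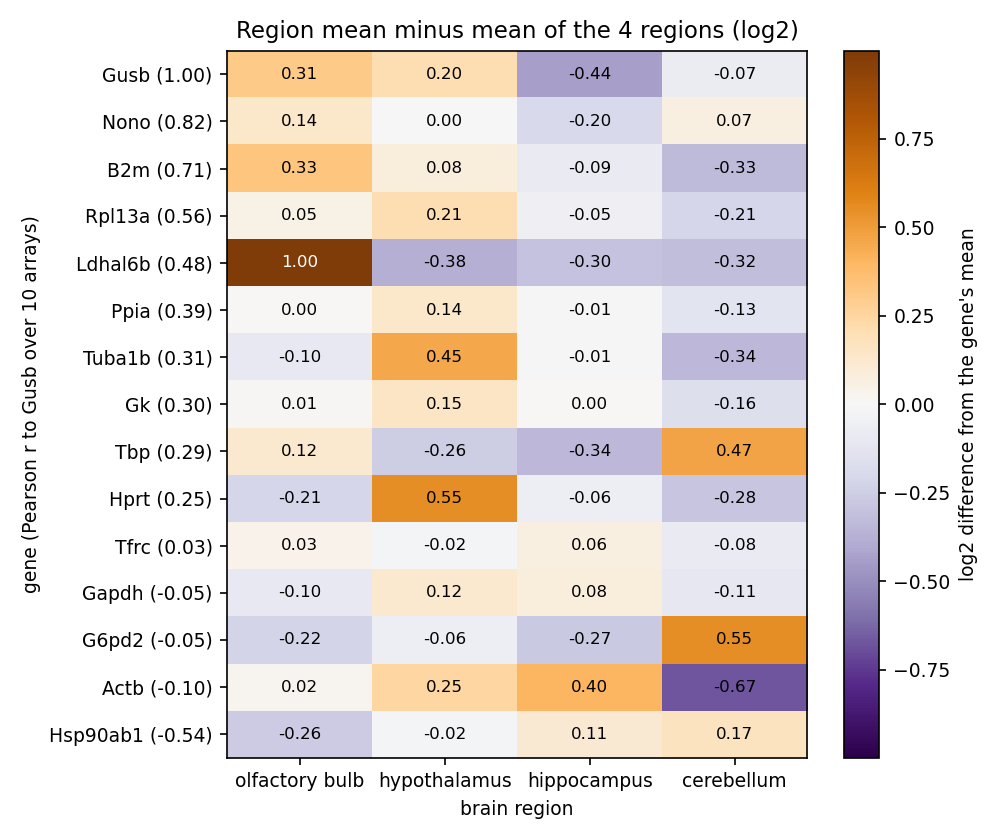
Region mean minus the mean of the 4 regions (log2 scale, colour and number) for the 15 named genes, ordered by their Pearson r to Gusb over 10 arrays (in brackets). Gusb is highest in the olfactory bulb and lowest in the hippocampus, as is Nono, whereas Hprt and Tuba1b are highest in the hypothalamus and Tbp and G6pd2 in the cerebellum.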

How the data were processed

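Per the labels, rRNA was removed from total RNA, which was then copied with random primers and labelled with Cy3. The authors read spot intensities with Agilent Feature Extraction 11.0.1.1, per the submitters' processing notes. The deposited intensity values are a processed signal, from which the software had taken the background and a spatial trend per the file headers, and a median signal with its local background. The authors' deposited value table, on the log2 scale, has no row for a CUST-named probe, so it gave no alternative.

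From the processed signal, outlier spots were left out, log2 values of the copies were averaged and each scan's 75th percentile was subtracted. Probes well above background (in over 0.5 of their copies) on all scans of at least 1 region and with a value on every array were tested (56494). The model of limma 3.58.1 in R 4.3.3 held a mean for each region over 10 arrays (6 residual degrees of freedom), with Benjamini-Hochberg adjustment, a call at 0.05 and no minimum fold. The code was tested on simulated data.

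Over probes well above background on all scans, arrays of the same number deviated together from their regions' means, with r of 0.12 to 0.76 (13 of 13 pairs over 0.1). Arrays of different numbers had r of -0.76 to 0.30, and 4 of 24 such pairs were over 0.1, so the ranges overlapped. The numbers, from the titles, were taken as pairing the arrays in the blocked fit. Over all tested probes 1 pair of the same number was at 0.0932. Deviations within a region add up to 0, so these pairs are not independent. Part of the contrast between same and different numbers was thus set in advance. Olfactory bulb array 1, for example, had an r of 0.465 with hippocampus array 1 and so -0.465 with hippocampus array 2. The hippocampus and the cerebellum, with 2 arrays each, gave the same r of 0.35 for numbers 1 and 2.

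Alternatives were other scalings, normexp (offset 50, on median signals), 2 filters, other treatments of scans, copies and outliers, tiles (128), the replicate block, trend and robust eBayes, 2 regions alone and leaving out each array. The named probes were Gusb, the other CUST-named genes and, by Pearson r over the arrays, the 3 most and 2 least alike of these and the 2 highest and 2 lowest of all probes. Gusb, the gene lists and the tests were chosen with earlier results of these data known. Precision is limited by how few arrays there are.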

Additional observations from a re-analysis of the deposited data

How the results depend on the processing

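The test over the 4 regions, the olfactory bulb minus the hippocampus and the hypothalamus minus the hippocampus kept their calls in every alternative run. Their adjusted p reached at most 0.0266, 0.0291 and 0.0495. The olfactory bulb minus the hypothalamus passed with no scaling (0.59) and, in settings added after the data were seen, with the replicate block together with no scaling (0.59) or with scaling by the other named genes (0.13). The olfactory bulb minus the cerebellum (0.38) lost its call when only these regions were fitted (adjusted p 0.156). The hypothalamus minus the cerebellum passed with median scaling (0.27), all 12 scans (0.25) and the replicate block, alone (0.30) or with quantile normalization (0.30) or normexp (0.29), and turned to -0.16 with no scaling and to -0.12 with the block and no scaling. The hippocampus minus the cerebellum passed with quantile (-0.36), median (-0.34) and no scaling (-0.67), scaling by the other named genes (-0.42), tiles (-0.38) and all 12 scans (-0.37). It also passed with the replicate block, alone (-0.37) or with quantile (-0.36), no scaling (-0.67), the other named genes (-0.42) or normexp (-0.32). With no scaling the median of all probes stood at -0.32 in this pair, and Gusb relative to that median differed by -0.35. The block changed no other call of Gusb. Among the 15 named genes it took the count called over the 4 regions to 13, against 8 without it. The share called among all probes was 53.8% with the block and 36.1% without it. Counting all 12 scans treats the closely alike scans, averaged in the main fit, as separate samples. The cause of these changes was not tested. Arrays were also left out 1 at a time, with both scans of an averaged pair left out together. A lone array was assumed to vary like the other regions. The olfactory bulb minus the hypothalamus was then 0.05 to 0.16. For the olfactory bulb the range was 0.68 to 0.83 minus the hippocampus and 0.30 to 0.46 minus the cerebellum. The ranges were 0.57 to 0.72 for the hypothalamus minus the hippocampus, 0.20 to 0.36 for the hypothalamus minus the cerebellum and -0.45 to -0.29 for the hippocampus minus the cerebellum. The adjusted p over the 4 regions was 0.00648 to 0.0266. The authors' value table could not be run as an alternative.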
